A study of Mus musculus with 9 samples.

Results

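Genes of arginine and polyamine metabolism were followed through the series, 10 in all: the arginases Arg1 and Arg2, the inducible nitric oxide synthase Nos2, the citrulline-recycling enzymes Ass1 and Asl, the arginine transporters Slc7a1 and Slc7a2, and the polyamine enzymes Odc1, Srm and Sms. They are 10 of the 24421 genes in the deposited table, taken by symbol. Arg1 was picked because it was lower after BAL101553 in every fit that left out a library, so the BAL101553 against control values of all 10 genes are given as a description, and no test of them is read.

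Arginine is the shared substrate of 2 competing routes. Arginase splits it into urea and ornithine, whereas nitric oxide synthase converts it into nitric oxide and citrulline, and citrulline can be rebuilt into arginine by argininosuccinate synthase and argininosuccinate lyase. Ornithine is decarboxylated to putrescine, to which spermidine synthase and spermine synthase add aminopropyl groups to form the polyamines that dividing cells need. In tumors, arginase is best known from myeloid cells, in which it is a classical marker of suppressive and alternatively activated states, while nitric oxide synthase marks the opposite state.

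The tumor cells were SB28, a GFP-expressing glioma line of mouse origin. The 3 control libraries and the 3 BAL101553 libraries were ex vivo samples from the brains of C57BL/6 mice that had received SB28 cells intracranially at 6 to 8 weeks of age, and BAL101553 is the prodrug of a microtubule-targeting agent. The study's methods describe sorting of GFP+ cells that lacked CD45 and CD11b, whereas the sample labels call these libraries whole tissue. The study's text names another data series for its sequencing. The details of mice, sorting and harvest in that text are taken here to hold for these libraries. Control mice were killed at day 21 and treated mice at day 35 by the methods and day 33 by the results text. The methods say that days 21 and 35 were set so that tumor volumes matched. Drug and time of growth therefore cannot be told apart, and the dose given to these mice was not stated. SB28 is 1 line, and the labels do not say whether the 3 libraries of a group came from separate mice, so the spread between them may be technical in part. The study's text speaks of fewer ex vivo samples per group than the 3 libraries in the table, all of which are used here, so each n = 3, SD and p-value rests on counting them as separate samples. A further 3 libraries were labelled astrocytes and share the treatment label of the BAL101553 libraries. How those cells were obtained is not given in the sources used here, nor are the age of the mice and the harvest day.

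Total counts ranged from 24540452 to 28761388 in control, from 26667789 to 34013875 in BAL101553 and from 22919523 to 29230743 in astrocyte-labelled libraries. The 16 myeloid markers in the table summed to 6.78 to 10.3 CPM (counts scaled to a common library size, with TMM factors) in control libraries and to 6.19 to 11.6 CPM in BAL101553 libraries, against 511 to 1201 CPM in astrocyte-labelled libraries. The pan-leukocyte gene Ptprc had at most 8 reads in any SB28 library. Astrocyte markers summed to 12295 to 15086 CPM in the astrocyte-labelled libraries, as their label says, but oligodendrocyte markers summed to 10495 to 13036 CPM in the same libraries. They are therefore called astrocyte-labelled throughout.

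Upstream sequence is shown for Odc1 and Sms, the first and the last enzyme of the polyamine route among the 10 genes, because both had lower means after BAL101553. RefSeq entries on GRCm38.p6 matched 4 of the 10 genes. The bases lie outside annotated exons and read 5′ to 3′ toward the gene. Capitals mark the E-box CACGTG, the letters bound by Myc family proteins, and the GC box GGGCGG or its reverse complement CCGCCC.
Odc1, chr12:17544623-17544793, plus strand: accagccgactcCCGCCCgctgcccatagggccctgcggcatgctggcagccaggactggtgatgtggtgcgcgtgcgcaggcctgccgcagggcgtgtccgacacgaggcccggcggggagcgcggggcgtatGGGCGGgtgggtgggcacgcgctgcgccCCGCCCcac
Sms, chrX:157492288-157492537, minus strand: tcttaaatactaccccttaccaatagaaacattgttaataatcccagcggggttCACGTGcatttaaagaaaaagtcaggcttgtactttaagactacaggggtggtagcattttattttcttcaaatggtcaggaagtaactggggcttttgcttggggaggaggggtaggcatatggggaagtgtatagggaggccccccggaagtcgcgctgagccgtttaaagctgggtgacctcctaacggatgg
The 171 bases of Odc1 held 3 GC boxes and no E-box. The 250 bases of Sms held 1 E-box and no GC box. Of the 32851 mouse promoters in the table, cut to the same length, 19.6% held a GC box and 3.4% an E-box at 171 bases, and 32.7% and 6.0% did at 250 bases. These matches describe letters only, and bases within the genes were not searched.

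Arg1, the cytosolic arginase (chr10:24915221-24927484, minus strand, mm10), had the widest difference of the 10 genes. It had 78.7, 19.0 and 34.3 CPM in control libraries 1, 2 and 3, and 4.90, 3.99 and 5.20 CPM in BAL101553 libraries 1, 2 and 3. All 3 control libraries lay above all 3 BAL101553 libraries, and control 1 stood well above the other controls. The mean was 44.0 ± 31.0 CPM in control (SD, n = 3) and 4.69 ± 0.629 CPM after BAL101553 (SD, n = 3), a log2 fold change of -3.21 ± 0.49 (standard error), or 9.28-fold lower. Only 4 of the 12633 genes tested had a lower log2 fold change. Without control 1 the log2 fold change was -2.50, and without control 2 it was -3.58, these being the extremes of the 6 fits that left out 1 library. When 1 library was left out of each group, it ran from -3.66 to -2.39 over 9 fits.

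**Figure D1:**
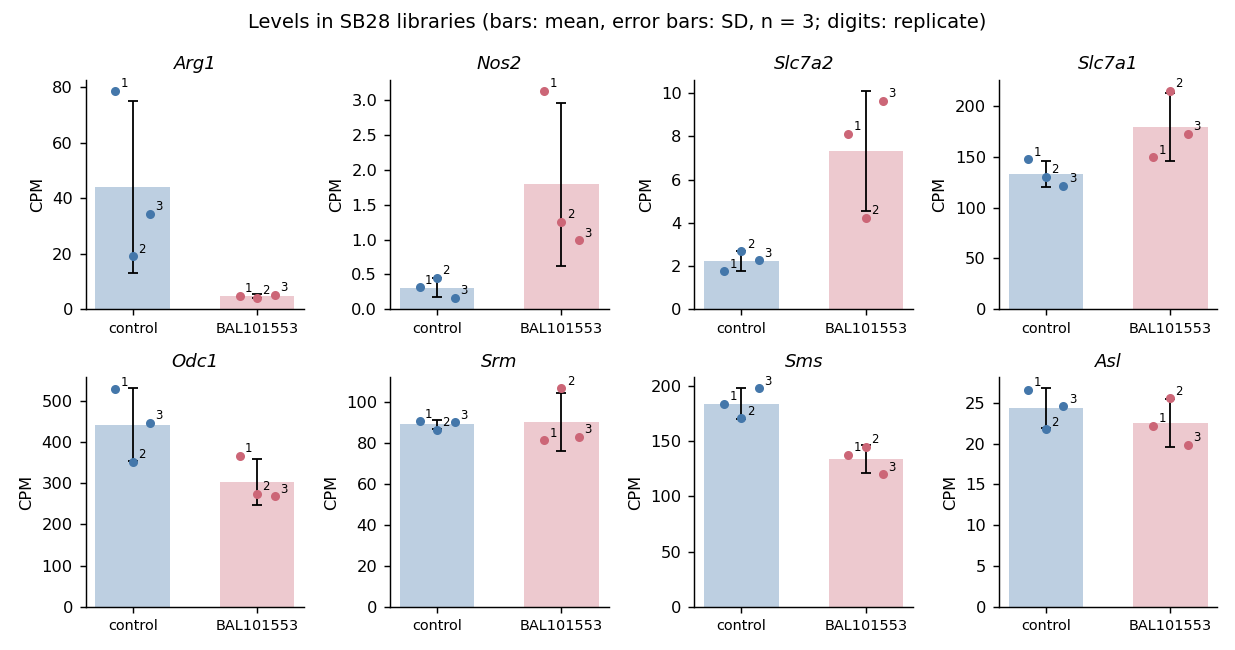
Levels in CPM (vertical axes, from 0) of 8 arginine and polyamine genes in the 3 control and 3 BAL101553 libraries. Bars are means, error bars the SD, points single libraries with their replicate number. Arg1 sits at 19.0 to 78.7 CPM in control and at 3.99 to 5.20 CPM after BAL101553, whereas Srm spans 86.4 to 90.4 CPM and 81.3 to 107 CPM.

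Levels of markers of other cell types were set beside those of Arg1. Control libraries held 510 to 1761 Arg1 reads, whereas all 16 myeloid markers together had 182 to 230 reads there. After BAL101553, Arg1 had 102 to 179 reads and the 16 myeloid markers 213 to 323. Of the myeloid reads, Cd68 alone gave 66 to 137 in control and 96 to 127 after BAL101553. The summed myeloid level overlapped between the groups. Of the myeloid markers tested, S100a8 and Csf1r were higher after BAL101553 with no overlap, and the others overlapped. S100a8 had 14 to 29 reads in control and 38 to 88 after BAL101553. Csf1r had 9 to 10 and 16 to 20 reads. Neither passed the threshold by edgeR. The 8 markers of alternatively activated macrophages summed to 0.447 to 0.792 CPM in control and 0.755 to 0.900 CPM after BAL101553. Of these, Mrc1, the mannose receptor, had 8 to 17 reads in control and 11 to 21 after BAL101553, and Chil3 and Retnla, secreted products of such macrophages, had 0 reads in all 6 SB28 libraries. The summed levels of the astrocyte and endothelial lists, in contrast, were lower after BAL101553, though not every gene on them was. The 8 astrocyte markers summed to 924 to 966 CPM in control and 671 to 787 CPM after BAL101553, and the 6 endothelial markers to 727 to 860 CPM and 511 to 638 CPM, with no overlap in either list. Most of these sums came from 1 gene each, named here after its values were seen. The gap junction gene Gja1 fell from 914, 872 and 920 CPM to 736, 703 and 641 CPM (log2 fold change -0.37 ± 0.09, adjusted p = 0.0363 by edgeR), and the cadherin gene Cdh5 fell from 763, 690 and 815 CPM to 564, 485 and 523 CPM (log2 fold change -0.52 ± 0.10, adjusted p = 0.0195 by edgeR). Of 5 astrocyte markers tested, 1 other passed, and it was higher after BAL101553 (Slc1a3, a glutamate transporter, at most 2.93 CPM), and none of the other 5 endothelial markers tested passed. The Gja1 and Slc1a3 calls were each kept in 1 of 6 fits that left out a library and the Cdh5 call in 3. The part of any of these cell types in the Arg1 difference was not tested. In bulk libraries, fewer cells that express a gene and less RNA per cell cannot be told apart.

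**Figure D2:**
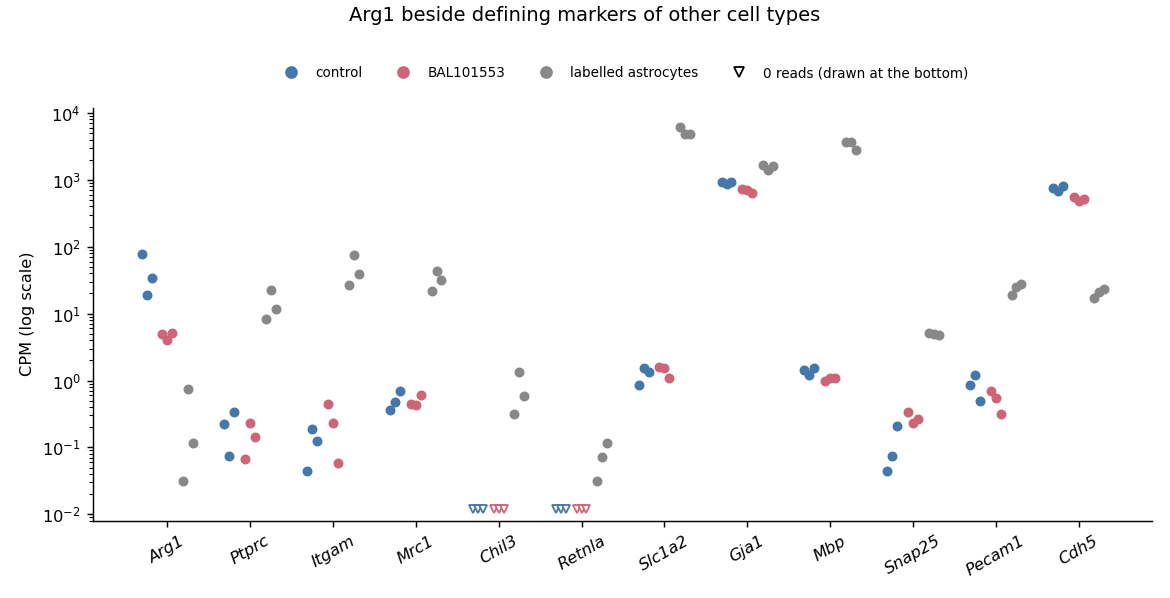
Level in CPM (log axis) of Arg1 and of markers of other cell types in each of the 9 libraries, by group. The markers are from the lists of leukocytes (Ptprc, Itgam), alternatively activated macrophages (Mrc1, Chil3, Retnla), astrocytes (Slc1a2, Gja1), oligodendrocytes (Mbp), neurons (Snap25) and endothelium (Pecam1, Cdh5). Open triangles at the bottom are libraries with 0 reads. Arg1 is highest in control libraries, whereas Ptprc, Itgam, Mrc1, Slc1a2 and Mbp are highest in the 3 astrocyte-labelled libraries. Gja1 and Cdh5, added after their values were seen, are abundant in SB28 libraries and lower after BAL101553. Slc1a2 and Pecam1 have at most 1.59 and 1.19 CPM in SB28 libraries.

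Arg2, the mitochondrial arginase (chr12:79130777-79156301, plus strand), was low everywhere. It had 24, 8 and 14 reads in control and 26, 12 and 2 reads after BAL101553, with a log2 fold change of -0.47 ± 0.80. The groups overlapped, and the value turned to 0.08 without control 1 and also without BAL101553 library 3. Arg2 shares its locus with genes on the opposite strand, Vti1b and Gm48780, and the strand setting of the counting was not stated.

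Nos2, which makes nitric oxide from the same substrate (chr11:78920787-78960254, plus strand), differed in the opposite direction from Arg1. It had 0.313, 0.447 and 0.167 CPM in control and 3.14, 1.25 and 0.987 CPM after BAL101553. The groups did not overlap, and BAL101553 library 1 was the highest. The log2 fold change was 2.51 ± 0.58, and 1.83 without that library. The values rest on few reads, 4 to 12 in control and 32 to 93 after BAL101553. Within a library, where scaling cancels, there were 252, 42.5 and 206 Arg1 reads per Nos2 read in control and 1.56, 3.19 and 5.26 after BAL101553. Arg1 thus outnumbered Nos2 in all 6 SB28 libraries, by a smaller margin after treatment.

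Among the genes around nitric oxide synthesis, tested over all 12633 genes with edgeR's quasi-likelihood test, Gch1 rose. Gch1 encodes the first enzyme of tetrahydrobiopterin synthesis, the cofactor that nitric oxide synthases need. It had 4.56, 4.24 and 3.34 CPM in control and 10.4, 10.5 and 8.68 CPM after BAL101553, with no overlap (log2 fold change 1.29 ± 0.19, adjusted p = 0.00995 by edgeR). The call was kept in 5 of 6 fits that left out a library and was lost without control 3, where the log2 fold change was 1.16. Of the 9 genes on the list of the urea cycle and nitric oxide, 5 could be tested, and Gch1 was the 1 that passed, where 14.7% of all genes tested did. The urea cycle genes Cps1 and Otc had 0 reads in all 6 SB28 libraries.

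Of the enzymes that rebuild arginine from citrulline, Asl was well covered by reads and Ass1 was not. Ass1, which joins citrulline to aspartate (chr2:31470207-31520672, plus strand), had 0, 1 and 0 reads in control and 3, 1 and 1 after BAL101553, at or under the floor of 3 reads in every library, and was not tested. Asl, which releases arginine in the next step (chr5:130011258-130029247, minus strand), was present at 26.6, 21.7 and 24.6 CPM in control and 22.2, 25.6 and 19.8 CPM after BAL101553. The groups overlapped, and the log2 fold change was -0.10 ± 0.14.

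Both arginine transporters had higher means after BAL101553. Slc7a1, the widely expressed cationic amino acid transporter (chr5:148327410-148399904, minus strand), had 148, 130 and 122 CPM in control and 150, 215 and 173 CPM after BAL101553. The lowest treated library lay just above the highest control, and the log2 fold change was 0.44 ± 0.15. Slc7a2, a related transporter that macrophages and astrocytes also use (chr8:40862396-40922308, plus strand), had 1.74, 2.68 and 2.25 CPM in control and 8.10, 4.22 and 9.64 CPM after BAL101553. The groups did not overlap, and the log2 fold change was 1.72 ± 0.34. A noncoding gene, Gm26584, overlaps Slc7a2 on the other strand. Slc7a1 remained the main transporter in SB28 libraries, with 48.6 to 84.7 reads per Slc7a2 read in control and 17.9 to 51.0 after BAL101553, ranges that overlapped through BAL101553 library 2.

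Another member of the transporter family, Slc7a3, rose from 10.8, 13.6 and 17.8 CPM in control to 19.8, 47.9 and 33.1 CPM after BAL101553 (log2 fold change 1.26 ± 0.32, adjusted p = 0.0381 by edgeR). The call was kept in 1 of 6 fits that left out a library, the one without BAL101553 library 1. Without BAL101553 library 2, the log2 fold change was 0.92. The other 4 tested genes of the cationic transport list did not pass.

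In the polyamine route, Odc1, the ornithine decarboxylase (chr12:17544794-17551505, plus strand), had 528, 352 and 448 CPM in control and 367, 275 and 268 CPM after BAL101553. BAL101553 library 1 exceeded control 2, so the groups overlapped, and the log2 fold change was -0.54 ± 0.18. A snoRNA gene, Gm22748, overlaps Odc1 on the same strand. Srm, spermidine synthase (chr4:148591503-148594993, plus strand), had 90.4, 86.4 and 90.0 CPM in control and 81.3, 107 and 82.9 CPM after BAL101553, with a log2 fold change of 0.03 ± 0.12. Its sign depended on the libraries, from -0.11 without BAL101553 library 2 to 0.10 without library 1. Sms, spermine synthase (chrX:157443855-157492287, minus strand), had 184, 170 and 198 CPM in control and 138, 145 and 120 CPM after BAL101553. Here the groups did not overlap, and the log2 fold change was -0.45 ± 0.10. Within a library, Sms had 1.97 to 2.20 reads per Srm read in control and 1.36 to 1.69 after BAL101553, so this ratio did not overlap between the groups either.

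**Figure D3:**
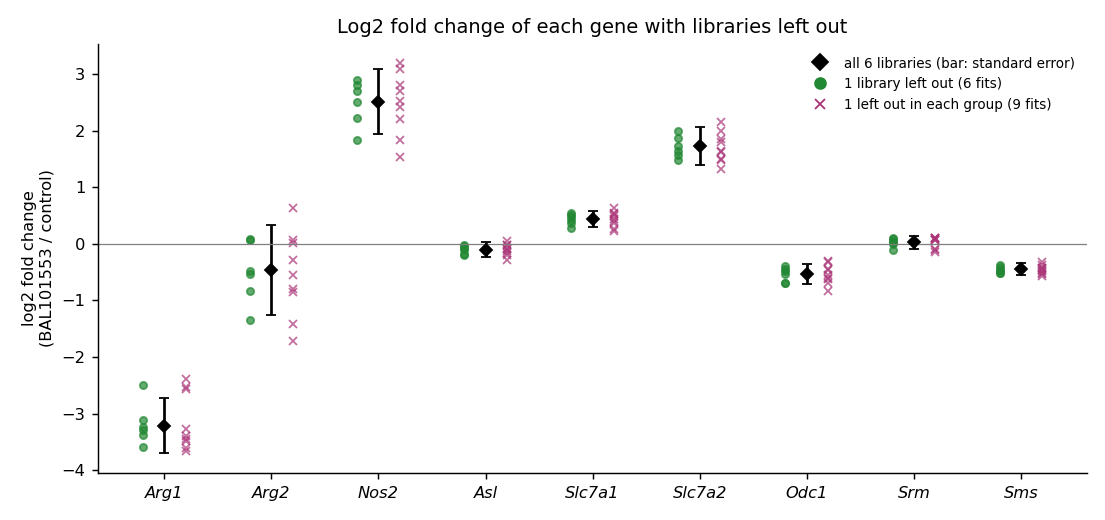
Log2 fold change of BAL101553 against control (vertical axis) for the 9 genes that could be tested. Diamonds with bars are the estimate and standard error over all 6 libraries, circles are the 6 fits without 1 library, and crosses the 9 fits without 1 library of each group. Arg1 stays between -3.66 and -2.39 in these fits, and Arg2, Asl and Srm cross 0.

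Of the 10 genes, 9 passed the filter on low counts, and 4 of these were past the threshold that was applied to all genes, 2 higher and 2 lower. Over all genes tested the share was 14.7%, with 8.64% higher and 6.09% lower. Groups did not overlap for 5 of the 9, against 39.7% of all genes tested. Because the contrast was used to choose the genes, nothing is read from these counts.

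The wider pathway was described by 6 lists of 63 genes that are not among the 10. All 63 were in the table, 5 were listed at 0 in all 9 libraries, and 51 were tested. Of these, 8 passed, 4 higher and 4 lower. That is 15.7%, near the 14.7% of all genes, and the median log2 fold change was -0.03 over the lists and 0.02 over all genes. The count fell to 4 without control 2, 3 without BAL101553 library 1 and 2 without control 1 or BAL101553 library 3. Without control 3, 0 of the 51 passed by edgeR's test, where 14 had an unadjusted p under 0.05.

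Polyamine regulation and turnover gave 1 call among 15 tested genes. Atp13a3, a transporter of polyamines out of endosomes, rose from 286, 346 and 253 CPM to 489, 601 and 411 CPM (log2 fold change 0.77 ± 0.17, adjusted p = 0.0267 by edgeR), and the call was kept in 3 of 6 fits that left out a library, being lost without control 1, control 3 or BAL101553 library 1. Azin1, which frees ornithine decarboxylase from antizyme, had 376, 378 and 333 CPM in control and 394, 318 and 355 CPM after BAL101553 (log2 fold change -0.02 ± 0.11, adjusted p = 0.912 by edgeR). Sat1, which acetylates polyamines for export, had 178, 139 and 182 CPM and 207, 197 and 128 CPM (log2 fold change 0.10 ± 0.19, adjusted p = 0.744 by edgeR). Both overlapped between the groups. Amd1, which supplies the aminopropyl groups, and the antizyme Oaz1 are listed at 0 in all 9 libraries, although cells in general use them.

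Hypusine is an amino acid built from spermidine on the translation factor eIF5A. Of the 4 genes on its list, 2 fell, where 6.09% of all genes tested did, and a list this short supports no statement about the list. Eif5a, which encodes that factor, went from 1010, 1017 and 1109 CPM to 796, 819 and 722 CPM (log2 fold change -0.42 ± 0.10, adjusted p = 0.0292 by edgeR). Dohh, the enzyme of the last step, went from 52.8, 60.4 and 65.3 CPM to 43.4, 37.9 and 39.0 CPM (log2 fold change -0.56 ± 0.11, adjusted p = 0.0193 by edgeR). The groups did not overlap for either gene. The Dohh call was kept in 4 of 6 fits that left out a library, being lost without control 3 or BAL101553 library 3, and the Eif5a call in 1, the fit without BAL101553 library 2. Dhps, the enzyme of the first step, had a log2 fold change of -0.22 ± 0.10 and Eif5a2, the second eIF5A gene, 0.66 ± 0.22, and neither passed (adjusted p = 0.168 and 0.0748 by edgeR).

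Of the 12 regulators tested, 2 passed, or 16.7%, near the 14.7% of all genes tested. Mycl, a Myc family transcription factor, fell from 14.7, 5.66 and 7.30 CPM to 3.24, 4.11 and 2.82 CPM (log2 fold change -1.44 ± 0.37, adjusted p = 0.0390 by edgeR), and by 0.94 on the log2 scale without control 1. Atf4, the transcription factor of the amino acid response, rose from 341, 315 and 372 CPM to 462, 433 and 411 CPM (log2 fold change 0.35 ± 0.10, adjusted p = 0.0480 by edgeR). The Atf4 call was lost whichever library was left out, and the Mycl call was kept in 2 of 6 fits, those without control 2 and without BAL101553 library 2.

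Myc, the best known activator of Odc1, had 139, 225 and 181 CPM in control and 131, 542 and 140 CPM after BAL101553. A single library set the mean. The log2 fold change was 0.59 ± 0.52 over all libraries (adjusted p = 0.460 by edgeR) and -0.41 without BAL101553 library 2. That library had an Odc1 level of 275 CPM, between 268 and 367 CPM in the other treated libraries. Whether Myc acts on Odc1 in these samples was not tested. Mycn had 0, 0 and 2 reads in control and 3, 12 and 8 after BAL101553, and was not tested.

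**Figure D4:**
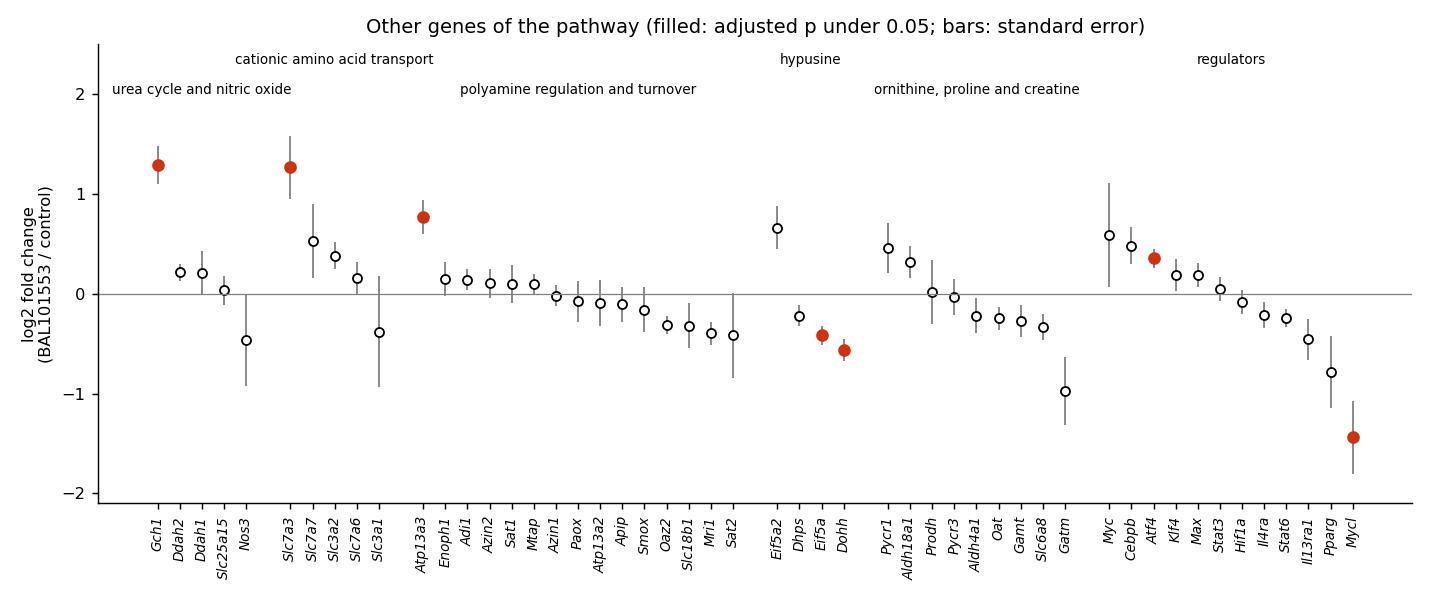
Log2 fold change of BAL101553 against control (vertical axis) for 50 tested genes of the 6 pathway lists, grouped by list. Points are estimates, bars standard errors, and filled points genes with an adjusted p under 0.05 by edgeR. The 7 filled points lie on both sides of 0, from 1.29 for Gch1 to -1.44 for Mycl.

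The astrocyte-labelled libraries were compared with the BAL101553 libraries, which share the treatment label. The stated reason for choosing the genes was Arg1 in the other contrast. That contrast used the same BAL101553 libraries, and earlier results of these data were known, so the p-values here are not free of selection. Between such different samples 85.1% of 15314 genes tested passed, 46.3% higher and 38.9% lower in the astrocyte-labelled libraries, so a call by itself says little. Arg2 and Ass1 did not pass the filter on low counts. All 7 others passed, 1 higher and 6 lower, and their groups did not overlap, as for 87.9% of all genes tested.

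Slc7a2 was the 1 that rose. It had 154, 140 and 142 CPM in astrocyte-labelled libraries, against 4.22 to 9.64 CPM in BAL101553 libraries (log2 fold change 4.26 ± 0.27, adjusted p = 2.04e-06 by edgeR). Slc7a1 was the mirror image, with 13.6, 12.9 and 13.9 CPM against 150 to 215 CPM (log2 fold change -3.77 ± 0.14, adjusted p = 1.29e-07 by edgeR). The order of the 2 transporters was thus reversed, with 0.0886 to 0.0978 Slc7a1 reads per Slc7a2 read in astrocyte-labelled libraries, against at least 17.9 in each of the 6 SB28 libraries.

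The polyamine enzymes were all lower in astrocyte-labelled libraries, by unequal amounts. Sms had 10.4, 11.3 and 13.6 CPM there (log2 fold change -3.54 ± 0.13, adjusted p = 1.08e-07 by edgeR). Srm had 27.2, 27.1 and 27.7 CPM (log2 fold change -1.75 ± 0.11, adjusted p = 1.94e-06 by edgeR). Odc1 had 139, 125 and 163 CPM (log2 fold change -1.13 ± 0.16, adjusted p = 0.000190 by edgeR). Sms reads per Srm read were 0.383 to 0.491, below every SB28 library, whereas Odc1 reads per Srm read were 4.62 to 5.88, within 2.58 to 5.84 or just above.

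Asl had 14.3, 14.3 and 14.5 CPM in astrocyte-labelled libraries (log2 fold change -0.68 ± 0.12, adjusted p = 8.82e-04 by edgeR). Nos2 had 0.568, 0.884 and 0.848 CPM (log2 fold change -1.26 ± 0.48, adjusted p = 0.0381 by edgeR), but only 18 to 25 reads, and the call was kept in 2 of 6 fits that left out a library, those without BAL101553 library 2 or 3. Without BAL101553 library 1 the log2 fold change was -0.60. Over the alternatives the adjusted p for Nos2 ran from 0.0160 to 0.128 by the tools used. Arg1, a description here too, had 0.032, 0.742 and 0.116 CPM. The highest of these was library 2, which also had the highest summed myeloid level, 1201 CPM, and the part of those cells in that value was not tested.

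**Figure D5:**
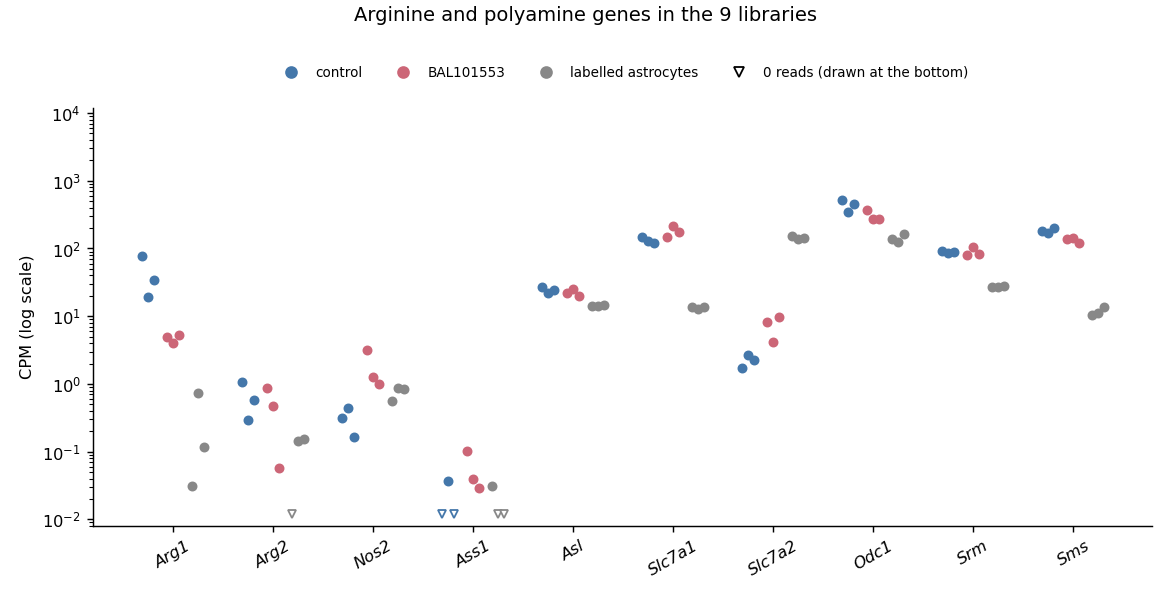
Level in CPM (log axis) of the 10 genes in each of the 9 libraries, by group. Open triangles at the bottom are libraries with 0 reads. Slc7a2 is highest in the astrocyte-labelled libraries (140 to 154 CPM), whereas Arg1, Slc7a1, Odc1, Srm, Sms and Asl are lowest there.

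Per kilobase of exon, which allows genes to be ranked against each other, Odc1 led in all 3 groups, with means of 130, 89.2 and 41.8 CPM per kb in control, BAL101553 and astrocyte-labelled libraries. Srm followed in each, at 55.6, 56.4 and 17.1 CPM per kb. In control libraries Sms (30.6), Arg1 (19.7) and Slc7a1 (11.5 CPM per kb) came next, and neighbours in that run overlapped. After BAL101553 the order was Sms (22.3), Slc7a1 (15.6), Asl (4.66) and then Arg1 (2.11 CPM per kb), each apart from the next. Arg1 thus ranked 4 of 10 in control and 6 of 10 after treatment. Slc7a2, Nos2, Arg2 and Ass1 made up the bottom of the treated order, and neighbours among them overlapped. In astrocyte-labelled libraries Slc7a2 (15.9 CPM per kb) came after Srm, ahead of Asl (2.98), Sms (1.96) and Slc7a1 (1.17 CPM per kb). Lengths were the union of all annotated exons of a gene, not of the transcripts expressed here, so these orders may depend on that choice.

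Across the 6 SB28 libraries, the 10 genes with the highest Pearson r with Arg1 on log2 CPM, of 11688 genes, were Surf4, Tesk1, Med28, Ctbp2, Ndufaf4, Lipo1, Abcf2, Galns, Gng11 and Cd81, with r from 0.991 to 0.995. With 6 points in 2 groups such values describe mainly the group difference, and with total counts for scaling 3 of the 10 stayed, with Spearman's rho 0. Among the other arginine and polyamine genes, r was 0.90 for Odc1, 0.86 for Sms, 0.50 for Asl and -0.08 for Srm. It was -0.68 for Slc7a1, -0.84 for Nos2 and -0.88 for Slc7a2.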

How the data were processed

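RNA was sequenced from 9 ex vivo mouse libraries, 3 per group. The deposited values are raw read counts per gene, made by the authors with 50 bp reads on mm10; the submitters' processing notes name TopHat and HTSeq 0.6.1, the methods featureCounts. In 27 rows the gene name had become a date. Positions and exon lengths came from GENCODE vM21.

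Groups came from sample titles. Counts were tested with edgeR 4.0.16 in R 4.3.3 (filterByExpr, TMM, quasi-likelihood F test, two-sided, Benjamini-Hochberg over all genes tested, threshold 0.05), with only the 2 groups compared in a fit. Levels are CPM with TMM factors over all 9 libraries. Standard errors were the log2 fold change over the square root of F. DESeq2 1.42.0, limma 3.58.1, other scalings and filters, a replicate block and left-out libraries were alternatives. The scripts were tested on simulated counts. Replicates differed by more than counting noise (chi-square per degree of freedom at least 14.3).

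Named genes were the 10 genes, pathway genes past the threshold, Amd1, Azin1, Oaz1, Sat1, Myc and Mycn, defining markers, and the 10 genes most like Arg1; Dhps, Eif5a2, Cps1, Otc, Gja1, Cdh5 and Slc1a3 were added after their values were seen, and 1 pathway gene, counted among those that passed, is not reported here. The genes and lists were chosen with earlier results of these data known. Oligodendrocyte markers summed to 18.4 to 20.5 CPM in control and 15.1 to 18.6 CPM in BAL101553 libraries. Neuron markers summed to at most 31.9 and 34.0 CPM there and to 13.8 to 15.7 CPM in astrocyte-labelled libraries, where endothelial markers gave 185 to 214 CPM.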

Additional observations from a re-analysis of the deposited data

How the results depend on the processing

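The direction of each called value held in every alternative run. The 1860 genes called between BAL101553 and control became 2832 with DESeq2, 3022 with all 9 libraries in 1 model, and 1 to 1757 when libraries were left out. Of single libraries, control 3 (193 genes without it), control 1 (458), BAL101553 3 (668) and BAL101553 1 (1133) moved it most. Scaling by total counts gave 1456 higher and 425 lower, against 1091 and 769. The 8 pathway genes called became 13 with all 9 libraries in 1 model, 4 with a replicate block, and 0 to 8 with libraries left out; in the 8 fits with 0, 10 to 15 had an unadjusted p under 0.05. DESeq2 called 11. The Arg1 log2 fold change ran from -3.66 to -2.39 with libraries left out and was -3.00 with the block. Of the 10 genes most like Arg1, 3 stayed under total counts and 0 under Spearman's rho. Between astrocyte-labelled and BAL101553 libraries, total counts moved the median log2 fold change of all genes from 0.18 to 0.39. Whether replicate numbers pair the samples could not be decided with 3 libraries per group. Deviations of control and BAL101553 libraries with the same number correlated at 0.17, 0.01 and 0.16. The 0.17 and 0.16 were the highest of all pairs, but control 2 was closer to BAL101553 3 (0.10). The block gave 1371 genes and lost Eif5a, Mycl, Atf4 and, against astrocyte-labelled libraries, Nos2. Few reads limit Arg2, Nos2 and Ass1. The causes of these shifts were not tested.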
